A study of Mus musculus with 8 samples.

Results

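Activated CD4 T cells that cannot sense IFN-γ were compared with wild-type cells in the absence of any added drug. The comparison took the 2 arrays titled IFN-gR1-KO with vehicle against the 2 titled WT with vehicle, which are 4 of the 8 arrays of the study. CD4+ T cells were magnetically sorted from spleens of mice 8 weeks old. They were wild type (WT) or deficient in IFN-γ receptor 1, the chain that binds the cytokine (KO). Both groups were stimulated with antibodies to CD3 and CD28 for 15 h and held in medium with the vehicle, med in the labels, for the last 3 h. The other 4 arrays had the same genotypes and received db-cAMP, a cell-permeable form of cyclic AMP, for those 3 h. The labels call the KO mice receptor-deficient, and the sources used here give no strain, allele or number of mice. The titles call the 2 arrays of a group biological replicates, without saying whether they were separate mice or cultures. The p-values therefore cover only the spread among these arrays, which may be technical. Titles, source names and genotype entries were followed where the free-text description of a KO array names it WT.

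IFN-γ is the signature cytokine of T helper 1 (Th1) cells. It binds a receptor of IFNGR1 and IFNGR2, which carry the kinases JAK1 and JAK2. The signal reaches genes through gamma-activated sites and induces transcription factors such as IRF1, which in turn act on interferon-stimulated response elements. Cell-autonomous defence GTPases, antigen presentation genes and chemokines are the classical targets. A T cell that secretes IFN-γ can respond to it, and no IFN-γ was added in this design as far as the labels say.

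Promoters of 4 genes that fell in KO cells are shown as examples of the 2 kinds of site known to pass on the IFN-γ signal. They were picked because they hold a match, so they say nothing of how often falls go with one. The letters searched were TTCNNNGAA, the core of a gamma-activated site, which reads the same on both strands, and GAAA followed by any 2 bases and a second GAAA, the core of an interferon-stimulated response element, on either strand. Each stretch runs from 250 bases before to 50 bases after the start and comes from RefSeq's GRCm38.p6 annotation, written 5′ to 3′ along the gene, with matches in capitals. Gbp2 lies at chr3:142620413-142620712, Gbp7 at chr3:142530086-142530385, Irgm2 at chr11:58214727-58215026 and Irf1 at chr11:53769764-53770063, all on the plus strand.
Gbp2: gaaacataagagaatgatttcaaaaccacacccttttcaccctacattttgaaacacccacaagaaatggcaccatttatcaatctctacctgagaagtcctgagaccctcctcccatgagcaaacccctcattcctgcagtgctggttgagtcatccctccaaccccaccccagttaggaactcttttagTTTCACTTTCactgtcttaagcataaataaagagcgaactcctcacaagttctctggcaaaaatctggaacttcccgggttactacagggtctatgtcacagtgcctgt
Gbp7: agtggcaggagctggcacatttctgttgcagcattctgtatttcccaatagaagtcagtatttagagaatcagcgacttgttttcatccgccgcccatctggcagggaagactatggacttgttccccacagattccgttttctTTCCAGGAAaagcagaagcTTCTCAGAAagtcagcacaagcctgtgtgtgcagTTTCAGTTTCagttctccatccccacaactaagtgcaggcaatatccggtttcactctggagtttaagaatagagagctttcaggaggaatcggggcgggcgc
Irgm2: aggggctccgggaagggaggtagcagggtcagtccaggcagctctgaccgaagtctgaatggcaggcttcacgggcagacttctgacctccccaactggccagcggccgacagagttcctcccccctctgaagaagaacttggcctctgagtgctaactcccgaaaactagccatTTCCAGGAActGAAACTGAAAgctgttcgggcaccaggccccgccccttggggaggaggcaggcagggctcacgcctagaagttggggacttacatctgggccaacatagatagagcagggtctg
Irf1: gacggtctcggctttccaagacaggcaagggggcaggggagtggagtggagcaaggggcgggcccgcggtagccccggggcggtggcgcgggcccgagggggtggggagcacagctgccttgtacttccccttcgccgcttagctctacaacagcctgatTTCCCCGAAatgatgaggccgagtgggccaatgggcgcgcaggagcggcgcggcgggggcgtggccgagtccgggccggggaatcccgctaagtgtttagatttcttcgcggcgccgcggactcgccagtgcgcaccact
In Gbp2 the match TTTCACTTTC begins at base -59 from the start. Gbp7 holds TTCCAGGAA at -106, TTCTCAGAA at -87 and TTTCAGTTTC at -53. In Irgm2 a TTCCAGGAA at -75 and a GAAACTGAAA at -64 lie side by side, and Irf1 holds TTCCCCGAA at -90. Among genes called lower in KO cells by 2-fold or more, 59 of 82 had an entry in the table, with 75 promoters of 300 bases. Of these 11 (14.7%) held TTCNNNGAA and 15 (20%) held the response element core, and 22 (29.3%) held either. Over the 12452 promoters of all tested genes that had an entry, the shares were 6.80% and 3.05%, and 9.52% for either. Over the 731 promoters of all genes called lower, of any size of fall, they were 7.11%, 6.16% and 12.4%. Of 127 promoters of genes higher by 2-fold or more, 12 (9.45%) held the first motif and 0 the second. These shares are descriptions without a test, and a match is not a shown binding site.

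Of 12091 genes tested, 1311 (10.8%) passed an adjusted p under 0.05 in limma, 612 (5.06%) higher and 699 (5.78%) lower in KO cells. Only 112 (0.926%) of the higher and 82 (0.678%) of the lower genes changed by 2-fold or more, and 16 and 23 by 4-fold or more. Changes under 1.5-fold made up 309 of the 612 rises and 518 of the 699 falls. Without any test, both KO arrays lay above both WT arrays for 2934 genes (24.3%) and below them for 3216 (26.6%). The median change of all tested genes was -0.01 on the log2 scale. Scaling the arrays to the same 75th percentile instead gave 402 rises and 1177 falls. Without the intensity trend in limma, which lets bright genes have a smaller spread, 251 genes were called, 150 higher and 101 lower. Each of the 4 vehicle arrays weighed on the count, which was 815 without WT replicate 1, 806 without WT replicate 2, 617 without KO replicate 1 and 775 without KO replicate 2. Replicate arrays correlated at 0.967 in WT and 0.975 in KO across genes, which are not independent replicates, and WT with KO arrays at 0.962 to 0.965.

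The direction of change moved with signal strength. Of the 179 genes with a mean signal of 20000 or more over the vehicle arrays, 173 (96.6%) were below 0, with a median log2 change of -0.36, and 124 were called lower. Of 267 genes between 10000 and 20000 the median was -0.18, and in the dimmer classes it lay between -0.04 and 0.04. Control signals moved with genotype as well. Poly-A controls, which are spiked into the RNA, averaged 830 and 959 on the WT arrays and 2781 and 2476 on the KO arrays. Hybridization controls stood at 8197 and 9016 against 5992 and 5856. The 3-prime to 5-prime signal ratio of 18S rRNA stood at 0.386 and 0.353 against 0.522 and 0.513, and that of Gapdh at 0.769 and 0.738 against 0.779 and 0.797. The Actb ratio stood at 1.46 and 1.64 against 1.35 and 1.4. None of these overlapped between the genotypes, whereas the geometric mean of the 18S probe sets did. The part of controls and signal strength in the gene changes was not tested.

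**Figure D1:**
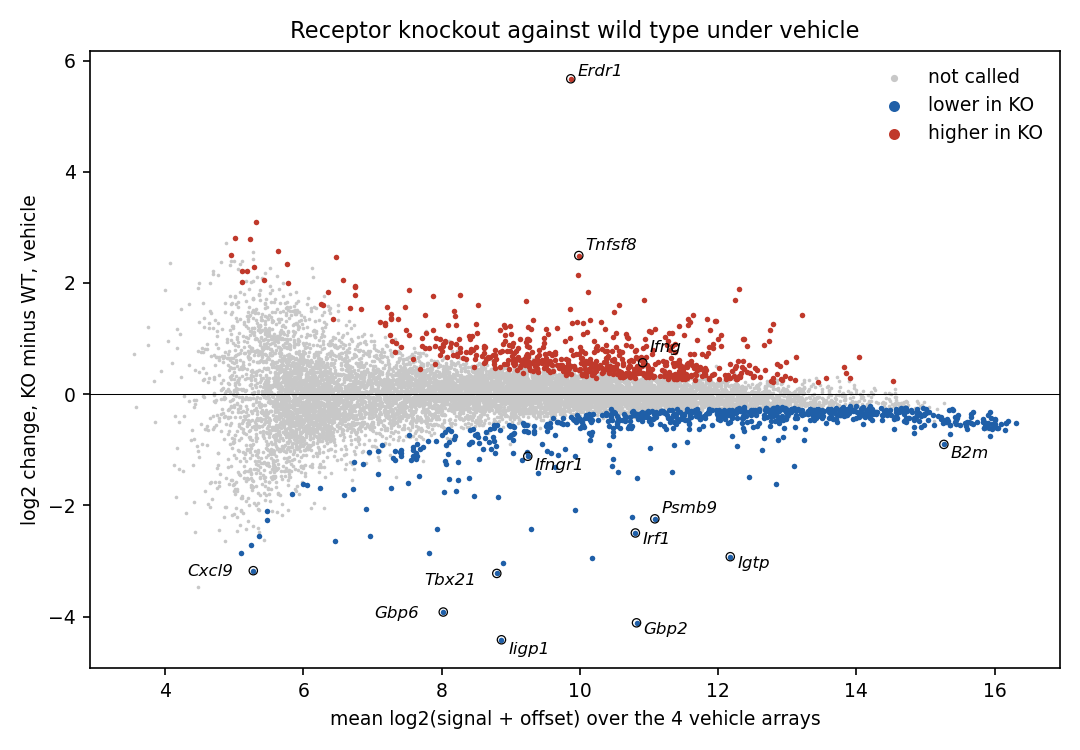
Log2 change (KO minus WT, vehicle) of 12091 genes against their mean log2(signal + 5.48) over the 4 vehicle arrays, with 612 genes called higher in red, 699 called lower in blue and the rest in grey. The long lower tail holds interferon-induced genes such as Gbp2, Iigp1 and Igtp, and at the right edge nearly all genes lie slightly below 0.

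Markers of T cells and of the other cells a spleen preparation could hold were read on each array. The summed signal of 13 T cell identity genes was 116270.0 and 118612 on the WT arrays and 107514 and 111477 on the KO arrays. Cd3e, a subunit of the CD3 complex, stood at 2813 and 3248 in WT and 2694 and 2471 in KO arrays (adjusted p = 0.139). Cd4, the defining coreceptor, stood at 340 and 539 against 253 and 354, which overlapped (adjusted p = 0.19). Cd247, the CD3 zeta chain, fell by 0.76 ± 0.07 on the log2 scale (adjusted p = 8.76e-06). Of the 13 identity genes 4 were called lower and 3 higher, against 5.78% and 5.06% of all genes tested. Without the intensity trend 1 was called lower and 0 higher. Mean signals of 5 of the 13 were above 10000, where most genes were lower. The summed CD8 signal was low and differed, at 499 and 516 against 290 and 335, and of its 2 genes Cd8b1 was called, at 362 and 367 against 176 and 205 (log2 -0.92 ± 0.21, adjusted p = 0.0121). That call was lost without WT replicate 1 (adjusted p = 0.0611), WT replicate 2 (0.065) or KO replicate 1 (0.0922). B cell markers summed to 12995 and 14118 against 11810 and 12455. With db-cAMP their sums were 7521 and 6984 in WT and 10737 and 9572 in KO arrays. Sums over NK cell, macrophage and neutrophil, and erythroid and platelet markers overlapped between the genotypes, and those of dendritic cells stood at 3450 and 3185 against 2994 and 2906. Bst2, which is also in the antiviral list below, made up 1929 and 1754 against 1557 and 1513 of the dendritic sum. In limma 0 of the 33 tested markers of those 5 kinds of cell were called, and 4 had an unadjusted p under 0.05, 2 higher and 2 lower. Over all genes tested 5.06% were called higher and 5.78% lower. These markers were dim, with median signals of 64 to 140 by kind of cell. Of 3111 genes with a mean signal under 100, 16 were called higher and 10 lower. The lack of calls therefore cannot show that such cells were equal between the genotypes. In bulk RNA, fewer cells of a type and less RNA per cell cannot be told apart.

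The transcript of the targeted receptor chain was lower but not absent on the KO arrays, and the transcript of the cytokine itself was higher. Ifngr1 (chromosome 10) gave signals of 905 and 873 on the WT arrays and 439 and 378 on the KO arrays. The groups did not overlap (log2 -1.12 ± 0.12, adjusted p = 4.1e-05). The sources used here do not place its probe set inside or outside the deletion, so this level is no check of the genotype. Ifng, which encodes IFN-γ, stood at 1813 and 1369 in WT and 2209 and 2469 in KO arrays, so both KO values lay above both WT values. It was 1.48-fold higher (log2 0.57 ± 0.13, adjusted p = 0.0113), a call lost without WT replicate 2 (adjusted p = 0.114) or KO replicate 2 (0.109). Jak1, the kinase bound to IFNGR1, was higher at 6908 and 6474 against 4255 and 5093 (log2 0.52 ± 0.10, adjusted p = 0.00455), lost without WT replicate 1 (0.0533) or KO replicate 1 (0.0593).

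Other parts of the receptor pathway went both ways. Ifngr2, the second receptor chain, stood at 194 and 191 against 269 and 296 (log2 0.54 ± 0.15, adjusted p = 0.0308), and it was not called without any 1 of the 4 vehicle arrays (adjusted p from 0.0716 to 0.152). Jak2, the kinase of IFNGR2, stood at 0.23 ± 0.08 (adjusted p = 0.076) and Socs1, the feedback inhibitor of JAK kinases, at -0.38 ± 0.18 (adjusted p = 0.225). Of 12 tested genes of the IFN-γ receptor pathway 3 were called higher and 3 lower, with a median of -0.07. Irf9, a DNA-binding factor of the interferon response, was the other large fall, from 769 and 970 to 411 and 421 (log2 -1.04 ± 0.13, adjusted p = 0.000175). Both KO values were below both WT values.

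**Figure D2:**
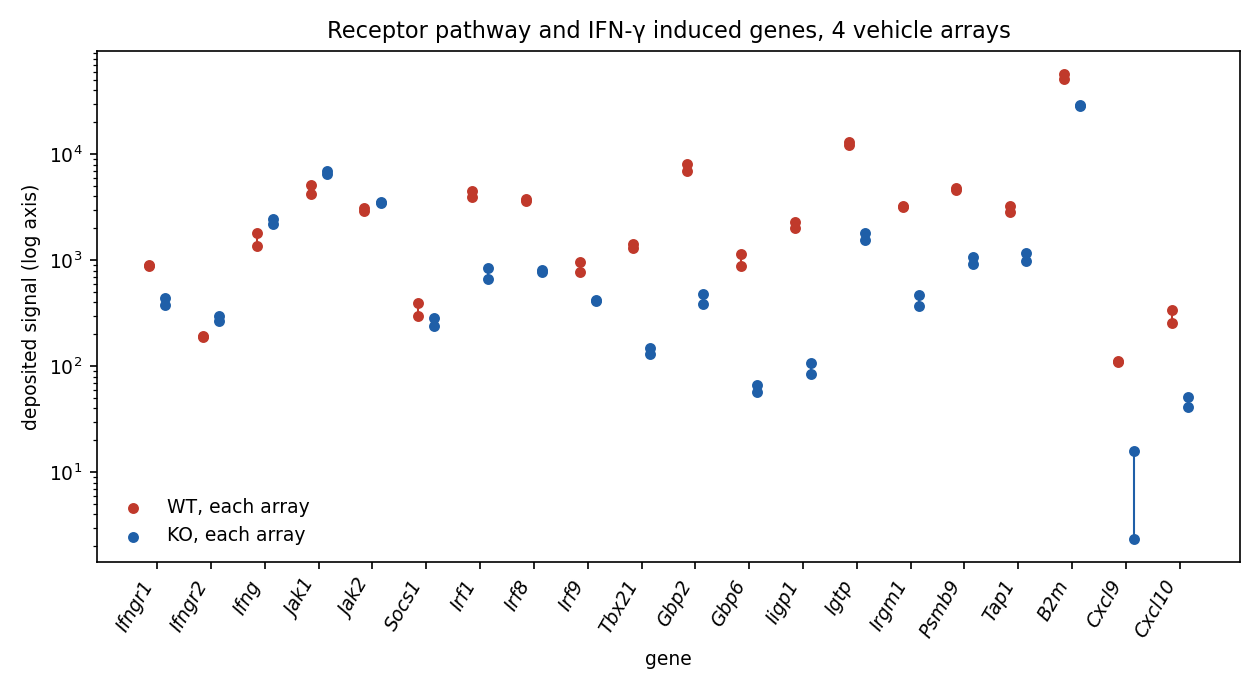
Deposited signal on a log axis of 20 genes on each of the 4 vehicle arrays, with WT arrays in red and KO arrays in blue and a line joining the 2 arrays of a group. Ifngr1 is lower and Ifngr2, Ifng and Jak1 are higher on the KO arrays, and the induced genes from Irf1 to Cxcl10 are lower there.

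Guanylate-binding proteins and immunity-related GTPases, which attack the vacuoles of intracellular microbes, were among the deepest falls. Gbp2 gave 6960.1 and 8103 on the WT arrays and 480.3 and 384 on the KO arrays. This was a 17.3-fold fall (log2 -4.11 ± 0.11, adjusted p = 2e-10), and a second Gbp2 probe set gave -4.03. Gbp6 went from 885 and 1144 to 66.0 and 57.3, a 15.1-fold fall (log2 -3.92 ± 0.19). Gbp8 stood at -2.85, Gbp7 at -2.42 and Gbp3 at -1.84, so all 5 tested guanylate-binding proteins were called lower, with a median of -2.85. In no case did a KO array reach a WT array.

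Iigp1, a GTPase that loads onto parasite vacuoles, gave 2302 and 2009.6 in WT and 84.7 and 108 in KO arrays. It fell 21.3-fold (log2 -4.42 ± 0.14, adjusted p = 1.01e-09), the largest fall of any gene called, and a second probe set gave -5.48. Irgm1 and Irgm2, regulators of these GTPases and of autophagy, and Igtp, another regulatory member, stood at -2.94, -3.03 and -2.92. Igtp gave 12306 and 13173 in WT and 1811 and 1549.9 in KO arrays. Ifi47 fell from 13799 and 13577 to 5712 and 5491 (log2 -1.29 ± 0.07). Of 6 tested members 5 were called lower and the median was -2.93. The member not called was Irgq, at 224 and 197 against 254 and 203, which overlapped (adjusted p = 0.825).

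The interferon regulatory factors, transcription factors of the interferon and immune response, split by member. Irf1, an early IFN-γ target, gave 3994 and 4498 in WT and 663 and 842 in KO arrays, a 5.64-fold fall (log2 -2.50 ± 0.11, adjusted p = 1.35e-08). Irf8, a partner of IRF1, gave 3813 and 3605 against 817 and 779 (log2 -2.21 ± 0.09), and its other probe set was called lower too, at -0.80. Both falls separated the groups widely. Irf4, which T cell receptor signals induce, stood at 15536 and 16163 against 12158 and 13384 (log2 -0.31 ± 0.07, adjusted p = 0.0119). It lost its call without WT replicate 2 (adjusted p = 0.081) or KO replicate 1 (0.107), and with quantile normalization (-0.16, adjusted p = 0.148). Irf7, a regulator of type I interferon genes, was dim and not called (log2 -0.84 ± 0.42, adjusted p = 0.256). In all 4 of 8 were called lower, 0 higher, and the median was -0.58.

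MHC class I antigen processing fell as a broad group of smaller changes, with 14 of 18 tested genes called lower, 0 higher and a median of -0.65. Without the intensity trend 7 were called lower. Psmb9, a catalytic subunit of the immunoproteasome, gave 4817 and 4622 in WT and 921 and 1072 in KO arrays (log2 -2.24 ± 0.09, adjusted p = 5.31e-09). Nlrc5, the transactivator of class I genes, stood at -2.08 ± 0.12, Psmb8, another immunoproteasome subunit, at -1.01 ± 0.10, and Tapbp, which helps load peptides, at -0.93 ± 0.09. Tap1, a subunit of the peptide transporter, gave 3279.9 and 2853 against 976 and 1171 (log2 -1.51 ± 0.10, adjusted p = 8.97e-07). Averaging all its probe sets gave 0.12 (adjusted p = 0.917), but no other one was bright enough to be tested. Calr, a chaperone of class I loading, did not pass (log2 0.03 ± 0.07, adjusted p = 0.87).

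The class I molecules themselves were among the brightest signals. B2m, the light chain, gave 50765 and 57179.6 in WT and 28779 and 28856 in KO arrays (log2 -0.90 ± 0.10, adjusted p = 7.99e-05). H2-K1, a heavy chain, gave 35739 and 38396 against 21839 and 24039 (log2 -0.69 ± 0.08). H2-D1, another heavy chain, stood at -0.62 ± 0.07. These falls compare with the median of -0.36 over all genes of 20000 or more, and with quantile normalization they stood at -0.53, -0.41 and -0.37. B2m was not called without the intensity trend (adjusted p = 0.0522), nor H2-D1 with the mean of its probe sets (-0.45, adjusted p = 0.124). Of 8 tested MHC class II genes 3 were called lower (0 without the trend), 0 higher, with a median of -0.56. Cd74, the invariant chain, gave 540.1 and 609.9 against 323 and 310.3 (log2 -0.85 ± 0.16, adjusted p = 0.00452), and the class II transactivator Ciita was dim and not called (log2 0.09 ± 0.76, adjusted p = 0.97). Class II genes are chiefly those of B cells and dendritic cells. Summed markers of these cells, given above, were also lower on the KO arrays without being called. The dendritic sum rests in large part on Bst2, which is also in the antiviral list. The B cell sum moved with db-cAMP in WT cells. The part of such cells in the class II falls was not tested.

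Antiviral genes that type I interferon also induces fell in part. Of 37 tested, 9 were called lower and 0 higher, and the median was -0.31. With the mean of probe sets 5 were called lower, and Parp14 (-0.97, adjusted p = 0.0967) and Samhd1 (-0.63, adjusted p = 0.0532) were not. The other tested Parp14 probe set was dim, at 96.1 and 33.1 in WT and 55.9 and 29.5 in KO arrays. Zbp1, a sensor of Z-form nucleic acid, gave 608 and 515 in WT and 101 and 98.2 in KO arrays (log2 -2.43 ± 0.19, adjusted p = 2.27e-06). Parp9 and Parp14, ADP-ribosyltransferases of the interferon response, stood at -1.83 ± 0.18 and -1.51 ± 0.18, and Samhd1, which degrades deoxynucleotides, at -1.39 ± 0.08. Ifit1, an RNA-binding antiviral protein, was dim, at 63.3 and 23.4 against 11.8 and 46.1, and the groups overlapped (adjusted p = 0.633). Of 35 other genes known to respond to IFN-γ, 10 were called lower (4 without the trend, 5 to 9 with 1 array left out) and 2 higher, with a median of -0.36. Among them Ncf1, a subunit of the phagocyte oxidase, stood at -1.21 ± 0.17, Ly6e, a surface protein that blocks viral entry, at -0.87 ± 0.07 and Icam1, an adhesion molecule, at -0.82 ± 0.13. Pim1, a cytokine-induced kinase, was instead higher, at 3980.4 and 4258 against 2513 and 2452 (log2 0.73 ± 0.08, adjusted p = 4.28e-05). Casp1 at -0.39 (adjusted p = 0.515) and Fas at 0.24 (adjusted p = 0.667), a protease of inflammation and a death receptor, were not called.

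Among 13 tested chemokine ligands 2 were called lower and 1 higher, with a median of -0.04. Cxcl10, a ligand of CXCR3 that draws Th1 cells, gave 259 and 343 in WT and 41.7 and 51.0 in KO arrays (log2 -2.56 ± 0.28, adjusted p = 5.76e-05). Cxcl9, another CXCR3 ligand, gave 109.6 and 112 against 15.8 and 2.34 (log2 -3.17 ± 0.88, adjusted p = 0.0353). The Cxcl9 arrays did not overlap, but the call was lost without any 1 vehicle array (adjusted p from 0.0532 to 0.171). Cxcl11, the third CXCR3 ligand, stood at -1.57 ± 0.62 (adjusted p = 0.137). Ccl1, a ligand of CCR8, was higher at 5667 and 5918 against 3067 and 2752 (log2 0.99 ± 0.09, adjusted p = 7.41e-06).

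**Figure D3:**
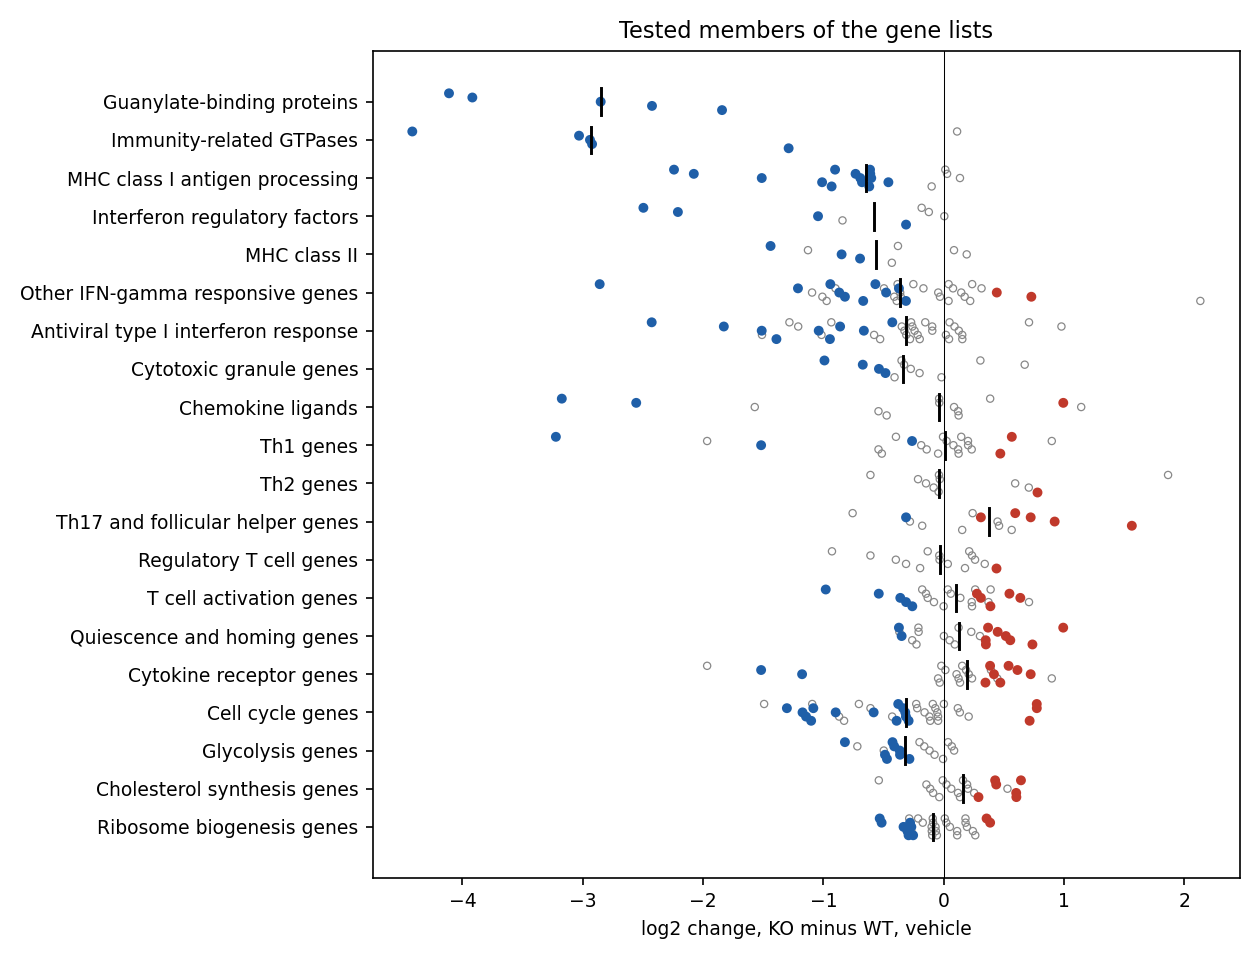
Log2 change (KO minus WT, vehicle) of each tested member of 20 gene lists, filled blue where called lower, filled red where called higher and open where not called, with a black bar at the list's median and the vertical spread only separating points. Guanylate-binding proteins (median -2.85) and immunity-related GTPases (-2.93) lie far left, MHC class I genes at -0.65, and most other lists straddle 0.

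The Th1 regulator T-bet was among the deepest falls, whereas most other Th1 genes did not pass. Tbx21, which encodes T-bet, gave 1414 and 1299.9 in WT and 149 and 132 in KO arrays, a 9.34-fold fall (log2 -3.22 ± 0.16, adjusted p = 2.61e-08). Every KO value lay far below every WT value. Il12rb1, a chain of the IL-12 receptor, gave 472 and 454 against 153 and 163 (log2 -1.52 ± 0.23, adjusted p = 0.00108). Il12rb2, the IL-12 signalling chain, was dim, at 51.1 and 36.3 against 1.55 and 16.6, and did not pass (log2 -1.97 ± 0.90, adjusted p = 0.209). Stat4, which carries the IL-12 signal, stood at -0.26 ± 0.08 (adjusted p = 0.0466) and was not called without any 1 vehicle array (adjusted p from 0.0912 to 0.205). Il18r1, a receptor chain for IL-18, and Cxcr3, a homing receptor of Th1 cells, stood at -0.05 (adjusted p = 0.964) and 0.08 (adjusted p = 0.805). Over 22 tested Th1 genes 3 were called lower and 2 higher, one of them Ifng, and the median was 0.01.

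Genes of cytotoxic granules and checkpoint receptors gave a few falls. Of 12 granule genes 4 were called lower (1 without the trend) and 0 higher, with a median of -0.34. Serpinb9, an inhibitor of granzyme B, gave 1106 and 1378 in WT and 599 and 639 in KO arrays (log2 -0.99 ± 0.12, adjusted p = 0.00013). Srgn, the granule proteoglycan, was very bright and stood at -0.48 ± 0.07 (adjusted p = 0.0011), a fall of 0.04 with no call after quantile normalization (adjusted p = 0.658). Gzmb, granzyme B, stood at -0.33 ± 0.12 (adjusted p = 0.108). These are also genes of CD8 T cells, whose summed signal was lower on the KO arrays as given above, and its part was not tested. Of 19 checkpoint and costimulatory genes 2 were called lower and 3 higher, with a median of -0.03. Over all genes tested 5.78% were called lower and 5.06% higher. Without the intensity trend 1 checkpoint or costimulatory gene was called lower and 0 higher, and with an equal 75th percentile 2 and 0. Lag3, an inhibitory receptor for MHC class II, gave 1532 and 1350.0 against 671 and 650.4 (log2 -1.12 ± 0.15, adjusted p = 0.000295). Btla, another inhibitory receptor, stood at -0.48 ± 0.08 (adjusted p = 0.00137, or 0.0672 without the trend), and Cd274, which encodes the IFN-γ inducible ligand PD-L1, at -0.17 ± 0.10 (adjusted p = 0.342).

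Genes of other helper subsets were read in the same way. Of 14 Th17 and follicular helper genes 5 were called higher and 1, Irf4, lower, with a median of 0.38, and 1 was called higher without the intensity trend. Ccr6, the chemokine receptor of Th17 cells, gave 97.7 and 98.2 in WT and 279 and 323 in KO arrays (log2 1.56 ± 0.22, adjusted p = 0.000547). Il17a, their signature cytokine, gave 198 and 202 against 422 and 348 (log2 0.92 ± 0.19, adjusted p = 0.00804). In both genes the groups lay apart, although the Il17a call was lost without KO replicate 1 (adjusted p = 0.0918) or without the trend (0.0501). Stat3, which transmits IL-6 signals, stood at 0.59 ± 0.10 (adjusted p = 0.00242), while the mean of its probe sets gave -0.15 (adjusted p = 0.618) and it was not called without the trend (0.105). Gata3, the Th2 regulator, gave 342 and 364 against 652 and 567 (log2 0.78 ± 0.14, adjusted p = 0.00281, or 0.0636 without the trend). It was the 1 called member of 11 Th2 genes, whose median was -0.04. Il4, the Th2 cytokine, overlapped between the groups (log2 -0.04 ± 0.25, adjusted p = 0.955). Of 15 regulatory T cell genes 1 was called higher and 0 lower, with a median of -0.03 (5.06% of all genes tested were called higher). Foxp3, which defines these cells, was at 0.26 ± 0.24 (adjusted p = 0.596).

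Activation genes changed in both directions, with 5 of 24 called higher, 5 lower and a median of 0.10, or 0 and 1 without the trend. Il2, the T cell growth factor, gave 1815 and 2250.5 in WT and 2327 and 2426 in KO arrays, which did not overlap but did not pass the test (log2 0.23 ± 0.18, adjusted p = 0.51). Il2ra, its inducible receptor chain, did not pass either (log2 0.24 ± 0.12, adjusted p = 0.245). Jun, a subunit of the transcription factor AP-1, gave 615 and 556 against 275 and 314 (log2 -0.98 ± 0.13, adjusted p = 0.000441). Myc, a driver of growth, stood at -0.26 ± 0.07 (adjusted p = 0.0336), lost without WT replicate 2 (adjusted p = 0.222), KO replicate 1 (0.14) or KO replicate 2 (0.107). Of 24 cytokine receptor genes 7 were called higher and 2 lower, with a median of 0.20, and 2 were called higher after quantile normalization, 0 without the trend and 1 to 3 with 1 array left out. The falls were Il12rb1 and Il15ra, the IL-15 presenting chain, which gave 905 and 807 against 356 and 396 (log2 -1.18 ± 0.16, adjusted p = 0.000486). Of 21 quiescence and homing genes 8 were called higher and 2 lower, with a median of 0.12. Only 1 was called higher without the trend, and 2 to 5 with 1 array left out. Foxp1, a transcription factor that keeps T cells quiescent, was the largest, at 7997 and 6834 against 3694 and 3728 (log2 0.99 ± 0.09, adjusted p = 9.7e-06).

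Cell cycle genes leaned lower, with 13 of 37 called lower, 3 higher and a median of -0.31. Top2a, a topoisomerase of dividing cells, gave 1348 and 1160.4 in WT and 495 and 512 in KO arrays (log2 -1.30 ± 0.12, adjusted p = 9.7e-06). Rrm2, which makes deoxynucleotides, gave 1227 and 1166 against 567 and 542 (log2 -1.1 ± 0.12). Pcna, the sliding clamp of replication, gave signals above 20000, at 34436 and 36741 against 22896 and 24659.6 (log2 -0.58 ± 0.07), or -0.29 with quantile normalization. The 3 rises were Cdkn1a, an inhibitor of cyclin-dependent kinases, at 0.71 ± 0.12, the G1/S kinase Cdk2 at 0.77 ± 0.09 and the phosphatase that activates it, Cdc25a, at 0.77 ± 0.11. The arrays of each of these 6 genes did not overlap. With the mean of their probe sets Top2a (-0.53, adjusted p = 0.471), Cdk2 (0.25, adjusted p = 0.771) and Cdc25a (0.36, adjusted p = 0.498) were not called, nor was Cdkn1a without the trend (adjusted p = 0.0723). The other tested Top2a probe set was dim, at 63.4 and 52.2 in WT and 40.5 and 61.1 in KO arrays. With quantile normalization 8 cell cycle genes were called lower, and without the intensity trend 3.

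Glycolysis genes also leaned lower, with 8 of 18 called lower (1 without the trend), 0 higher and a median of -0.32, but 6 of the 18 had mean signals above 10000, where most genes were lower. Tpi1, a glycolytic isomerase, gave 12853 and 12822 against 7007 and 7532 (log2 -0.82 ± 0.07, adjusted p = 6.13e-06), and -0.72 with quantile normalization. Ldha, lactate dehydrogenase, stood at -0.43 ± 0.08 (adjusted p = 0.0026) and at -0.14 with quantile normalization (adjusted p = 0.129). Hif1a, a regulator of glycolysis, stood at -0.41 ± 0.08, and at -0.24 with quantile normalization (adjusted p = 0.0187). Hif1a was not called without the trend (adjusted p = 0.117) or with the mean of its probe sets (-0.63, adjusted p = 0.108). Of 32 ribosome biogenesis genes 8 were called lower and 2 higher, with a median of -0.09, and 1 was called lower after quantile normalization and 0 without the trend. Of 21 cholesterol synthesis genes 6 were called higher and 0 lower, with a median of 0.16. With 1 array left out 3 to 5 were called higher, and without the trend 0. Srebf1 and Srebf2, the regulators of lipid and sterol synthesis, each stood at 0.60 (adjusted p = 0.0681 and 0.0561 without the trend), and Srebf2 gave 2142 and 1967 in KO against 1277 and 1427 in WT arrays.

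Counts of the remaining lists follow, against 5.06% of all genes tested called higher and 5.78% called lower. Without the intensity trend at most 1 gene of each of these lists was called in either direction. Called higher and lower were 2 and 0 of 13 chemokine receptors (median 0.13), 4 and 4 of 22 JAK-STAT feedback and STAT5 targets (0.00), 3 and 1 of 21 apoptosis genes (0.12), 2 and 3 of 25 genes of the unfolded protein and ATF4 response (-0.03) and 5 and 3 of 28 cAMP and CREB targets (0.03). For the lists above with 0 genes called in 1 direction by limma, an unadjusted p under 0.05 in that direction was reached by 1 antiviral gene (higher), 1 Th2 gene, 1 regulatory T cell gene and 2 chemokine receptors (lower) and by no gene of the others.

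The largest rise by far was that of Erdr1. Erdr1, named as an erythroid differentiation regulator, gave 71.9 and 216 in WT and 5992 and 7425 in KO arrays, a rise of 5.67 ± 0.35 on the log2 scale (adjusted p = 2.2e-07, and 4.91 to 6.43 with 1 array left out), and it stood at 5.17 under db-cAMP. A second Erdr1 probe set was dim on all vehicle arrays, from 61.2 to 76.2, and stood at 0.20. Tnfsf8, the CD30 ligand, gave 415 and 428 against 2397 and 2402 (log2 2.49 ± 0.13, adjusted p = 7.18e-08). Nipbl, which loads cohesin onto chromatin, gave 410.0 and 549.9 against 2483 and 1789.8 (log2 2.14 ± 0.16), and the brightest of its other probe sets gave 1.07. In these 3 genes the KO arrays stood apart from the WT arrays by several fold.

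Many genes have more than 1 probe set, which allowed a second reading of the same gene. Of the 82 genes lower by 2-fold or more, 30 had another tested probe set, the brightest of which was lower for 29, and another was called lower for 16 (53.3%). Of the 112 genes higher by 2-fold or more, 76 had another, the brightest was higher for 55, and another was called higher for 23 (30.3%). Median changes were -1.26 and -0.99 on the chosen and the brightest other probe set for falls, and 1.24 and 0.23 for rises. Pdap1, a growth factor binding phosphoprotein, gave 3040.3 and 2367 in WT and 8491 and 8856 in KO arrays on 1 probe set (log2 1.69 ± 0.11). On its other probe set it gave 4238 and 3888 against 4047 and 3281 (log2 -0.16, adjusted p = 0.401). Dhx36, a helicase that unwinds G-quadruplexes, stood at 1.61 ± 0.09 and -0.04 on its chosen and its brightest other probe set. Jund, an AP-1 subunit, stood at 1.88 ± 0.09, with a dim second probe set at -0.80. The shares in the 2 directions were not tested against each other, and 2 probe sets of a gene can report different transcripts.

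**Figure D4:**
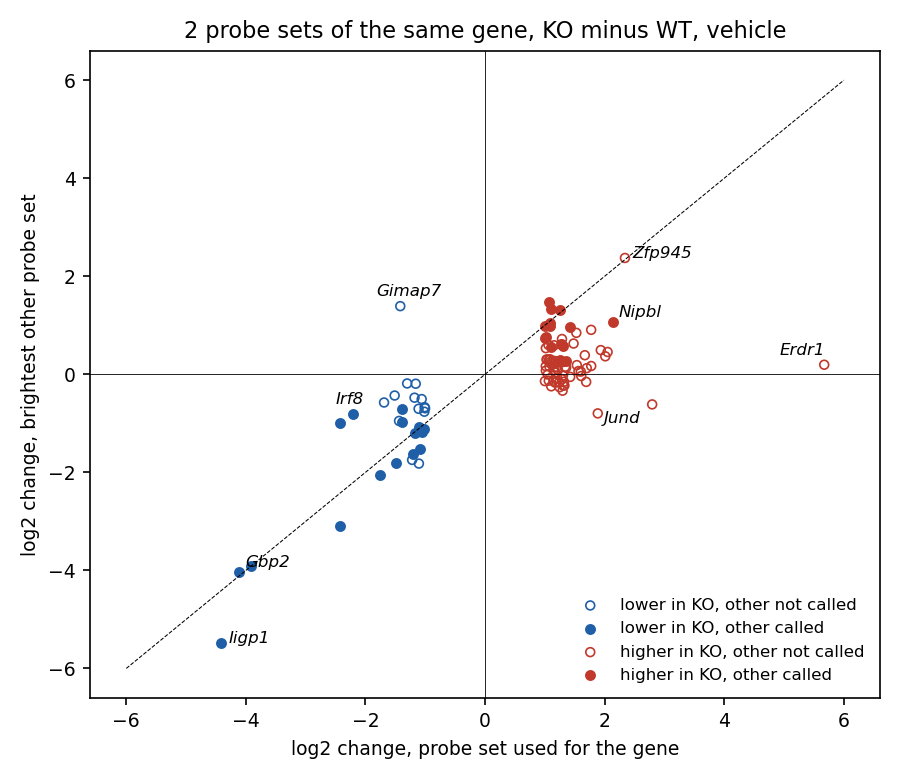
Log2 change (KO minus WT, vehicle) of the probe set used for a gene against that of its brightest other tested probe set, for 30 genes lower (blue) and 76 genes higher (red) by 2-fold or more, filled where the other one was called and with a dashed line of equality. Gbp2 lies near the line and Iigp1 below it, while many rises lie near 0 on the vertical axis.

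The same genotype contrast in the 4 db-cAMP arrays shares no sample with the vehicle contrast, only the estimate of spread. On the db-cAMP arrays 3529 of 12091 genes (29.2%) were called, 1926 (15.9%) higher and 1603 (13.3%) lower. Of the 82 genes lower by 2-fold or more under vehicle, 81 were below 0 and 65 (79.3%) were called lower under db-cAMP, with a median of -1.72 against -1.48 under vehicle. Of the 112 genes higher by 2-fold or more, 99 were above 0 and 81 (72.3%) were called higher, with medians of 0.99 and 1.30. The test of the difference between treatments, which called 1425 genes (11.8%), passed for 31 of the 82 falls, of which 28 were larger under db-cAMP. It passed for 22 of the 112 rises, of which 20 were smaller under db-cAMP. Both sets were chosen for their size under vehicle, and the difference subtracts those same vehicle values. That choice alone favours smaller changes under db-cAMP, so the split of the rises cannot be read as an effect of treatment.

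Individual members behaved in different ways across the treatments. Igtp was lower by 2.92 under vehicle and by 4.84 under db-cAMP, with a difference of -1.92 (adjusted p = 1.24e-05). Tbx21 stood at -3.22 and -3.37, a difference of -0.15 that did not pass (adjusted p = 0.746). Il12rb1 stood at -1.52 under vehicle and -0.10 under db-cAMP, and the difference passed (1.42, adjusted p = 0.0132). Lag3, at -1.12 and -0.32, and Il15ra, at -1.18 and -0.28, also differed toward a smaller fall under db-cAMP (adjusted p = 0.0236 and 0.024). Cd274 stood at -0.17 under vehicle and -1.11 under db-cAMP (difference adjusted p = 0.000672). Poly-A and hybridization controls differed by genotype on those arrays in the same directions as under vehicle.

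**Figure D5:**
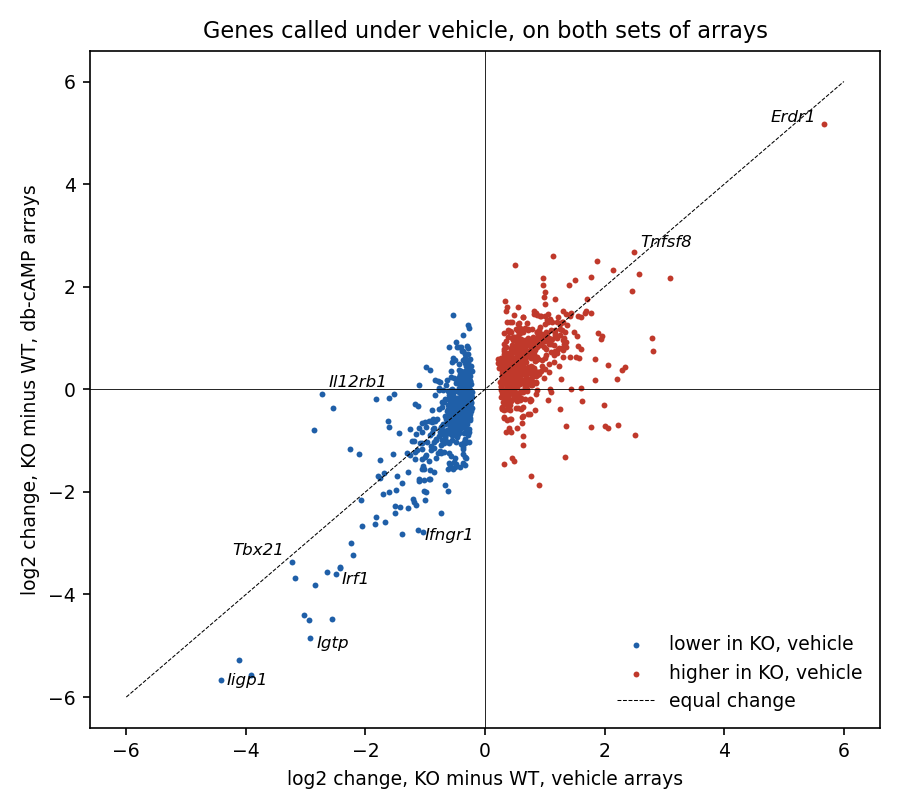
Log2 change (KO minus WT) on the vehicle arrays against that on the db-cAMP arrays for the 1311 genes called under vehicle, blue for lower and red for higher, with a dashed line of equal change. Most deep falls, such as Iigp1 and Igtp, lie below the line, Tbx21 lies near it, and Il12rb1 lies near 0 on the vertical axis.

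The chromosome around the targeted gene was also read. Of 40 genes next to Ifngr1 on chromosome 10, 20 on each side, 10 were tested, 1 was called higher and 1 lower, against 5.06% and 5.78% over all genes tested. Map7, a microtubule-associated protein 8 genes away, gave 310 and 267 in WT and 144 and 118 in KO arrays (log2 -1.11 ± 0.23, adjusted p = 0.00762). Its call was lost without WT replicate 1 (adjusted p = 0.0623) or KO replicate 2 (0.0619).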

How the data were processed

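The authors deposited 1 linear intensity value per probe set and array, made with MAS5 (version not stated) per the submitters' processing notes. Each column's trimmed mean was close to 500, so each array was scaled before deposit, and total mRNA per cell cannot be read from them. Precision is limited by the number of arrays.

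Values were transformed as log2(signal + 5.48), the offset being the 10th percentile of all values, which understates changes of dim genes. Of 45101 probe sets 34945 had a single gene symbol, for 18193 genes. The probe set with the highest mean was used for each gene, and the 12091 genes above their array's median on at least 2 arrays were tested. Differences came from limma 3.58.1 in R 4.3.3 (lmFit, eBayes with an intensity trend, 1 term per group over 8 arrays, 4 residual degrees of freedom), with Benjamini-Hochberg adjustment over all genes tested. Errors of log2 changes are standard errors. An exact permutation test of 2 against 2 arrays cannot go below a two-sided p of 0.333. Python 3.11.15 with matplotlib 3.10.9 made the figures.

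The comparison and the gene lists were chosen with earlier results of these data known. Named genes were the 15 largest rises and falls, up to 5 called members per list with the largest changes, and a set of pathway genes, of which the text names a part. Chosen after their values were seen were Irgq, Irf7, H2-K1, H2-D1, Calr, Ifit1, Cxcl11, Gzmb, Pcna, Cdkn1a, Cdk2, Cdc25a, Gimap4, Gimap7, AW112010, Wdfy1, Map7, Pdap1, Dhx36 and Jund. The 4 promoters shown were picked from interferon-related lists among genes called lower whose promoter holds a motif match. List members without a tested probe set of their own were not analysed here.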

Additional observations from a re-analysis of the deposited data

Results flagged for a closer look

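The change in KO relative to WT cells differed between the treatments by the interaction test in limma (adjusted p under 0.05) for 50 of the genes followed. Values here are the log2 change under db-cAMP minus that under vehicle. Igtp stood at -1.92, Gbp6 at -1.66, Irgm1 at -1.56, Irgm2 at -1.37, Iigp1 at -1.25, Gbp2 at -1.16, Gbp7 and Ifi47 each at -1.03, Gbp8 at -0.972 and Gbp3 at -0.783, all larger falls under db-cAMP. Larger falls were also those of Cxcl10 at -1.93, Samhd1 at -1.43, Irf1 at -1.11, Zbp1 at -1.06, Irf8 at -1.02, Serpinb9 at -1.0, Ncf1 at -0.935, Parp14 at -0.903, Gimap7 at -0.868, Psmb9 at -0.764, Tap1 at -0.755, Tapbp at -0.473, Gimap4 at -0.467, Cd247 at -0.441, H2-D1 at -0.418 and AW112010 at -0.387.

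Ifngr1 stood at -1.62 and Ifngr2, which was higher in KO cells under vehicle and lower under db-cAMP, at -1.29. Genes that did not pass under vehicle but differed between treatments were Ifit1 at -2.95, Jak2 at -1.24, Cd274 at -0.944, Gzmb at -0.783, Calr at -0.315, Cd3e at 0.498, Il2ra at 0.574 and Il2 at 2.15. Stat3 at -0.981, Jund at -0.795, Stat4 at -0.766, Gata3 at -0.697, Hif1a at -0.655 and Pim1 at -0.554 shifted lower. Myc at 1.46, Il12rb1 at 1.42, Btla at 1.3, Il15ra at 0.893, Foxp1 at 0.814, Lag3 at 0.799, Ccl1 at 0.665 and Irf4 at 0.374 shifted higher. Like Ifngr2, Stat3 (0.59 under vehicle and -0.39 under db-cAMP), Myc (-0.26 and 1.20) and Btla (-0.48 and 0.82) were called in opposite directions.

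Poly-A controls, which no comparison of genes uses, were 2.94 times as bright on the KO as on the WT vehicle arrays.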

How the results depend on the processing

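The count of 1311 genes called under vehicle ran from 617 to 815 when 1 vehicle array was left out, the rises from 297 to 450 and the falls from 320 to 430. Without the intensity trend it was 251 (150 higher, 101 lower, 74 of the higher by 2-fold or more), and the difference between treatments 261. With the mean of a gene's probe sets it was 756 (379 higher, 377 lower, 67 of the higher by 2-fold or more), with 2264 under db-cAMP and 639 for the difference. Those means took in probe sets too dim to be tested on their own. Over every probe set it was 2401 (1391 higher, 509 by 2-fold or more), and 5790 under db-cAMP. An equal 75th percentile gave 402 higher and 1177 lower, and shifted the median of all genes to -0.10. The replicate block gave 1250 calls (582 higher, 668 lower). Deviations of same-numbered arrays correlated between -0.02 and 0.02 over all genes tested. A correlation over all genes cannot show whether same-numbered arrays shared a mouse or culture. Other offsets, filters, quantile normalization and the vehicle arrays alone gave 993 to 1453 calls. All 5 guanylate-binding proteins and 5 of 6 immunity-related GTPases were called lower in every alternative run. Of 14 MHC class I genes called lower, 7 were counted without the trend and 11 with the mean of probe sets.

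Of 101 genes followed, 79 were called. Of these 47 kept their call and direction in every alternative, 11 lost it in at least 1 leave-one-out and 18 without the trend. Called genes that turned were Tap1 at 0.12 and Stat3 at -0.15 with the mean of probe sets. No other Tap1 probe set was bright enough to be tested. Genes not called also turned. Calr stood at -0.065, Ciita at -0.00023 and Cxcr3 at -0.011 with an equal 75th percentile, and Cxcr3 at -0.027 after quantile normalization. With 1 array left out Irgq ran from -0.046 to 0.27, Calr from -0.016 to 0.072, Ifit1 from -1.37 to 0.21, Ciita from -0.24 to 0.41, Il18r1 from -0.38 to 0.28, Cxcr3 from -0.016 to 0.18, Il4 from -0.26 to 0.18 and Fas from -0.20 to 0.68. The cause of these changes was not tested. Genes near the background of the arrays, such as Ifit1 and Ciita, have wide errors that limit what can be seen.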

Other observations

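Several of the deeper falls were not named above. Gimap4, a GTPase of immunity-associated proteins that regulates lymphocyte survival, gave 9129.7 and 9483 in WT and 3186 and 3442 in KO arrays (log2 -1.49 ± 0.07, adjusted p = 2.96e-08), and its other probe set gave -1.80. Gimap7, a relative, gave 1119 and 1077 against 355 and 468 (log2 -1.42 ± 0.12, adjusted p = 7.8e-06). Its other probe set was dim, at 16.1 and 10.3 against 30.0 and 60.3, and was not called (adjusted p = 0.208). AW112010, an interferon-inducible transcript, was among the brighter genes, at 12529 and 12908 against 4339 and 4002 (log2 -1.61 ± 0.07, adjusted p = 1.35e-08). Both KO values of these genes lay below both WT values.

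Wdfy1, an adaptor of endosomal Toll-like receptor signalling, gave 490.4 and 585 in WT and 132 and 183 in KO arrays (log2 -1.75 ± 0.25, adjusted p = 0.000667), and the brightest of its other probe sets gave -2.06. Calhm6, a member of the calcium homeostasis modulator family, gave 213 and 217 against 35.9 and 24.4 (log2 -2.65 ± 0.31, adjusted p = 0.000116). Upp1, a uridine phosphorylase and a member of the list of other genes known to respond to IFN-γ, gave 84.2 and 89.8 against 4.69 and 10.5 (log2 -2.86 ± 0.74, adjusted p = 0.0251), close to the dim end of the arrays. Its call was lost without WT replicate 1 (adjusted p = 0.115), WT replicate 2 (0.124) or KO replicate 1 (0.104).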
